A study of Mus musculus with 186 samples.

Results

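Fibroblast growth factor 4 (Fgf4) is the main FGF ligand made by inner cells of the early mouse embryo, and Fgfr1, Fgfr2, Fgfr3 and Fgfr4 encode the receptor tyrosine kinases that FGF ligands bind. The 5 genes were taken by name from a table of 55421 genes, and their values in 169 single inner cells are described here across 7 groups of cells. Inner cells of the blastocyst take 1 of 2 fates: epiblast, the source of the body of the embryo, or primitive endoderm, a source of yolk sac. FGF4 is secreted by cells that lean to epiblast, and its signal through FGFR1 and FGFR2 and then through the kinases RAS, RAF, MEK and ERK favours primitive endoderm. FGFR1 is known as the receptor shared by inner cells, and FGFR2 as the one that gains in primitive endoderm.

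All cells came from CD-1 mouse embryos. Inner cells were freed from the outer layer by immunosurgery, in which antibody and complement lyse the outer cells. Fresh embryos, neither cultured nor treated, came from 3 stages in days after mating (E3.25, then E3.75, and last E4.0). Cultured embryos were collected as morulae at E2.75 and kept in KSOM medium for 16 or 24 hours with DMSO as the solvent control or with 10 µM LY294002 (LY), which blocks phosphoinositide 3-kinase (PI3K). The fresh stages held 19, 22 and 14 cells in that order. The 16-hour arms held 31 cells each, and the 24-hour arms 28 (DMSO) and 24 (LY). The cells of a group that share a date label form 1 experiment, which served as the replicate. Each fresh stage had 2 experiments and each culture group had 3, with 3 to 18 cells in an experiment. The 16-hour experiments carry later dates than all other experiments, so the date and the 16-hour culture cannot be told apart. Each culture time has 3 dates, and every one of them covers a DMSO and an LY experiment.

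Values are TPM, in which a cell's transcripts are scaled to a fixed total. TPM holds no read number, and sequencing depth is therefore unknown. A gene was called detected in a cell at a TPM of 1 or more. By that rule 3806 to 10220 genes were detected in a cell, with a median of 6584. Levels are means over the cells of an experiment of log2(TPM + 1), given as mean ± SD over experiments, and differences on this scale understate the change of low genes. The inner cell marker Pou5f1 was detected in 169 of 169 cells and Nanog in 164. The outer layer genes Cdx2, Gata3 and Tspan8 were detected in 18, 31 and 22 cells, while the keratin gene Krt8 was detected in 159. Other genes of the outer-layer list used below were also widely detected, among them Krt18 (138 cells), Fabp3 (117), Hand1 (88) and Lgals3 (74). Over all cells the median TPM of Cdx2, the defining factor of the outer layer, was 0. Mitochondrial genes took 3.05% to 16.1% of TPM in the fresh experiments before E4.0 and 14.3% and 16.1% in those at E4.0.

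In the GRCm38 genome (GENCODE M21), Fgf4 (ENSMUSG00000050917.5) lies on chromosome 7 from 144847367 to 144865243 on the plus strand, with 3 exons in its coding transcripts, and no other annotated gene overlaps it. Fgfr1 (ENSMUSG00000031565.18) spans 25513654 to 25575718 on chromosome 8, Fgfr3 (ENSMUSG00000054252.18) 33721674 to 33737068 on chromosome 5, and Fgfr4 (ENSMUSG00000005320.9) 55152640 to 55168759 on chromosome 13, all on the plus strand. Fgfr1 and Fgfr3 each overlap 1 annotated gene on the opposite strand. Fgfr2 (ENSMUSG00000030849.18), on the minus strand of chromosome 7, is annotated from 130162451 to 133123350, a span that holds 69 other annotated genes, 30 of them protein-coding. How the counting treated reads from these genes is not stated in the labels used here. A processed pseudogene of Fgfr3, Fgfr3-ps, was detected in 4 of 169 cells, so a low value of Fgfr3 could hold reads shared with it.

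Fgf4 was detected in 87 of 169 cells. Its level was highest at E4.0, and lowest in both LY groups. Among fresh cells it was detected in 15 of 19 at E3.25 (78.9%, exact 95% binomial interval 54.4 to 93.9). The later stages had 14 of 22 (E3.75) and 11 of 14 (E4.0). DMSO cells had it in 19 of 31 (16 hours) and 15 of 28 (24 hours). With LY it was detected in 7 of 31 cells at 16 hours (22.6%, 9.59 to 41.1) and 6 of 24 at 24 hours (25%, 9.77 to 46.7). These intervals cover counting error only.

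Cells that had Fgf4 also differed in how much they held. The median TPM of Fgf4 among detecting cells was 31 (E3.25), 14.3 (E3.75) and 34.5 (E4.0). In culture it was 7.06 (DMSO) and 6.74 (LY) after 16 hours, then 7.73 (DMSO) and 5.02 (LY) after 24 hours. A TPM of 10 or more was reached in 10 of 19, 9 of 22 and 10 of 14 fresh cells, in 6 of 31 and 6 of 28 DMSO cells, and in 2 of 31 and 2 of 24 LY cells. Only 3 cells reached a TPM of 100, 2 at E3.75 (396 and 191) and 1 at E4.0 (108). The largest value, 396, came with 83.8 for Fgfr1, 124 for the epiblast factor Nanog and 0 for Fgfr2, in a cell with 4316 genes detected. The same cell had 0 for the epiblast factor Sox2. Of primitive endoderm factors it had 9.36 for Gata6, 5.32 for Gata4 and 0 for Sox17.

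**Figure D1:**
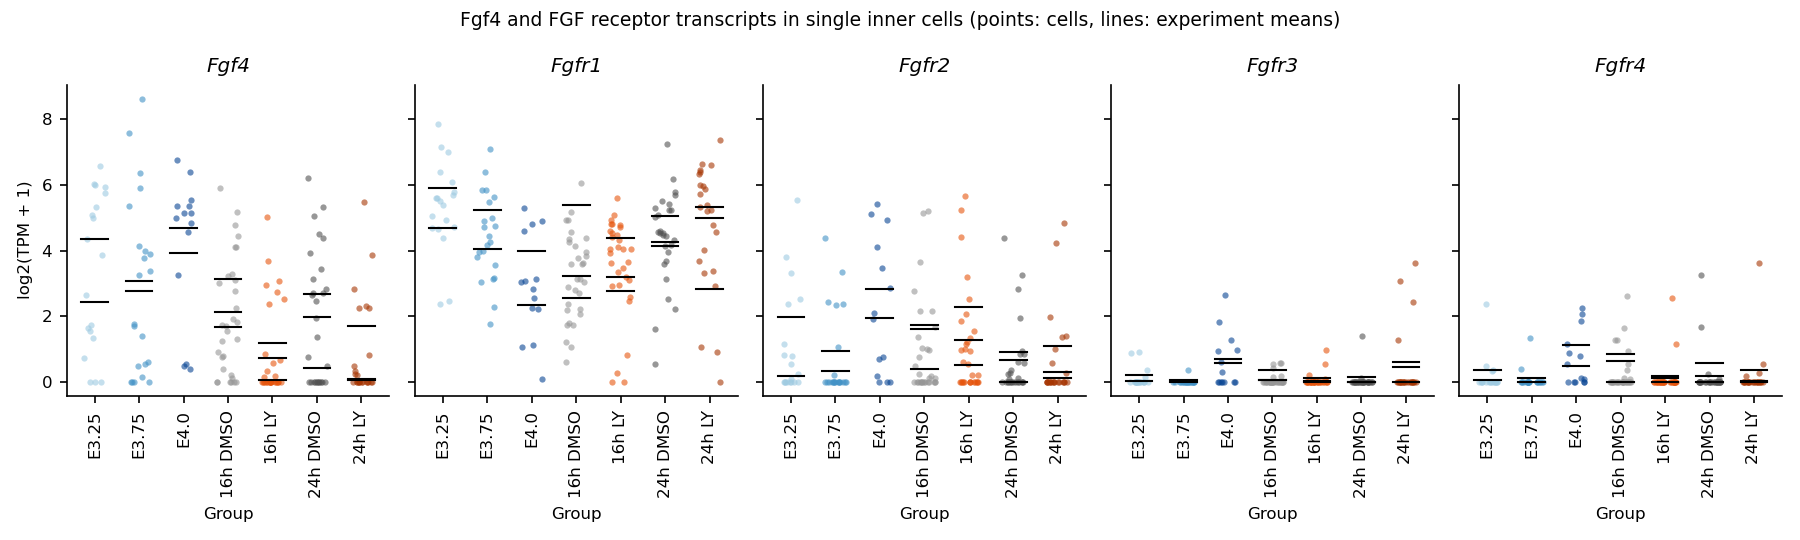
Level of each gene in every cell, as log2(TPM + 1), by stage and treatment. Points are cells and black lines are experiment means (2 for a fresh stage, 3 for a culture group); Fgf4 cells with LY gather at 0, Fgfr1 is above 0 in nearly all cells, and Fgfr3 and Fgfr4 are at or near 0 in most.

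By experiment, the mean log2 level of Fgf4 was 4.35 and 2.44 (E3.25), 2.76 and 3.07 (E3.75), and 3.92 and 4.70 (E4.0). DMSO experiments gave 3.12, 1.66 and 2.13 (16 hours) and 0.41, 2.68 and 1.99 (24 hours). LY experiments gave 0.73, 1.19 and 0.05 (16 hours) and 0.07, 1.68 and 0.06 (24 hours). The highest group was E4.0 (4.31 ± 0.55), followed by E3.25 (3.4 ± 1.35), E3.75 (2.91 ± 0.22), DMSO at 16 hours (2.30 ± 0.74), DMSO at 24 hours (1.69 ± 1.16), LY at 16 hours (0.66 ± 0.57) and LY at 24 hours (0.61 ± 0.93). In this order every group's experiments overlapped those of the group before it. At 16 hours the 3 LY experiments all lay below the 3 DMSO experiments, while at 24 hours the arms overlapped. Here and below, the share of all genes whose experiments lay apart in this way is not given, so such separations are a description.

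The question of the culture arms is what PI3K inhibition does to inner cells. On each of the 6 dates the level and the detected share of Fgf4 were lower with LY than with DMSO. The share of all genes that were lower on every date is not given here. On the 3 dates at 16 hours the detected share with LY minus that with DMSO was -81.8, -19.8 and -60 percentage points, and on the 3 dates at 24 hours it was -16.7, -22.7 and -54.5 points. The mean was -42.6 ± 10.9 points (SE over 6 dates; two-sided exact sign-flip test p = 0.03125, the smallest p that 6 dates can give, adjusted over the 5 genes p = 0.156). A single gene of the 5 at that smallest p cannot pass 0.05 after the adjustment. The first 16-hour date rested on 3 DMSO cells, and without it the mean was -34.8 points. No Fgf4 was detected in 3 of the 6 LY experiments, in 0 of 6, 0 of 7 and 0 of 5 cells, where a limit of 3 cells of the total allows shares of up to 50%, 42.9% and 60% (exact 95% upper limits 45.9%, 41% and 52.2%).

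In limma's model of the experiment means, none of the 4 tested genes passed in any LY comparison. Of all 11680 genes tested none passed either (0% at 16 hours, 0% at 24 hours, 0% for the mean of both times and 0% for the difference between the times), with 641, 615, 1032 and 291 genes at an unadjusted p under 0.05. The level of Fgf4 with LY minus that with DMSO was -1.64 ± 0.70 (SE) at 16 hours (limma adjusted p = 0.854) and -1.09 ± 0.70 at 24 hours (limma adjusted p = 0.912). Averaged over both times it was -1.36 ± 0.49 (95% interval -2.39 to -0.34, limma p = 0.0118, adjusted p = 0.534). The median over all genes of this mean difference was -0.27. The 2 times did not differ beyond their error for Fgf4 (0.55 ± 0.99, adjusted p = 1).

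The number of genes detected per cell moved with LY as well, and was lower in the LY arm on 6 of 6 dates, with 8303 against 9995 genes on the first 16-hour date. With the number of genes detected as a covariate the mean difference of Fgf4 was -0.77 ± 0.48 (p = 0.122, limma adjusted p = 0.998). Among cells whose number of genes detected lay in the range that both arms of a date share, an alternative chosen after seeing the data, Fgf4 was detected in 7 of 30 LY cells and 19 of 35 DMSO cells. In these cells the share was lower with LY on 4 of 5 dates and equal on 1 (mean -25 ± 6.33 points, exact p = 0.125, adjusted p = 0.625, the first 16-hour date having no shared range). The outer-layer list also lay lower with LY at 16 hours, 14 of 14 tested markers being below 0 (none past the test). Its median was -0.73, beside -0.33 over all genes. Lists described below had many genes below 0 there too. These were 14 of 16 for co-receptors and heparan sulfate, 17 of 21 for primitive endoderm, 14 of 18 for epiblast and 11 of 16 for feedback genes and targets of FGF-ERK. Cdx2 was detected in 8 of 31 DMSO and 1 of 31 LY cells at 16 hours, and in 2 of 28 and 5 of 24 at 24 hours. The outer-layer list's mean level ranged from 1.89 to 3.87 over DMSO and from 1.51 to 2.18 over LY experiments at 16 hours. At 24 hours it ranged from 1.44 to 1.94 with DMSO and from 1.16 to 1.73 with LY. The part of outer-layer cells in the Fgf4 difference was not tested.

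**Figure D2:**
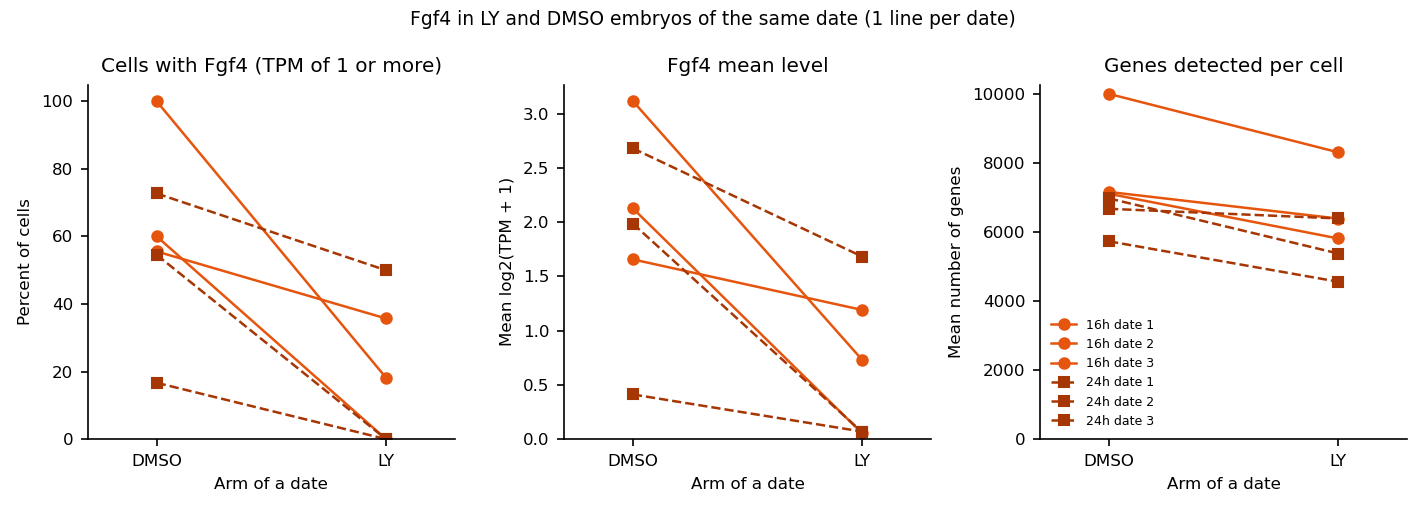
Fgf4 in the DMSO and LY arms of each of 6 dates: percent of cells with a TPM of 1 or more, mean log2(TPM + 1), and mean number of genes detected per cell. Each line joins the arms of 1 date (circles and solid lines 16 hours, squares and dashed lines 24 hours); all 6 lines go down in each panel.

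The receptors showed no such pattern over the dates. Fgfr1 was lower with LY on 4 dates and higher on 2, with a mean difference of -0.18 ± 0.57 (95% interval -1.37 to 1.00, limma adjusted p = 0.926). Fgfr2 was lower on 2 dates and higher on 4 (0.04 ± 0.38, interval -0.76 to 0.84, adjusted p = 0.980 by limma). Fgfr4 was lower on 4 dates and higher on 2 (-0.26 ± 0.17, interval -0.61 to 0.10, limma adjusted p = 0.633). The detected share differed by -10.5 ± 5.09 points for Fgfr1, -3.05 ± 10.0 for Fgfr2, 5.03 ± 5.03 for Fgfr3 and -10.8 ± 6.52 for Fgfr4 (SE over 6 dates, exact adjusted p from 0.260 to 0.750).

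Fgfr1 was the most widely detected receptor gene, in 160 of 169 cells and in 54 of the 55 fresh cells. It reached a TPM of 10 in 4 of 14 cells at E4.0, against 17 of 22 (E3.75) and 17 of 19 (E3.25). Its mean log2 level by experiment was 4.70 and 5.91 (E3.25), 4.04 and 5.23 (E3.75), then 2.35 and 3.97 (E4.0). Both E4.0 experiments lay below both experiments of each earlier stage, a description with no share over all genes beside it. With DMSO the values were 5.38, 3.23 and 2.55 at 16 hours and 5.05, 4.25 and 4.14 at 24 hours, and with LY they were 4.39, 3.20 and 2.76 and then 5, 5.34 and 2.82. The order of the groups ran from E3.25 (5.30 ± 0.86) through E3.75 (4.64 ± 0.84), DMSO at 24 hours (4.48 ± 0.50), LY at 24 hours (4.39 ± 1.37), DMSO at 16 hours (3.72 ± 1.48) and LY at 16 hours (3.45 ± 0.85) to E4.0 (3.16 ± 1.15), and neighbours in it overlapped.

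Fgfr2 was detected in 50 of 169 cells, among them 8 of 14 at E4.0, 6 of 22 at E3.75 and 6 of 19 at E3.25. In culture it was detected in 9 of 31 DMSO and 12 of 31 LY cells at 16 hours, and in 4 of 28 and 5 of 24 at 24 hours. Experiments had mean log2 levels of 0.16 and 1.97 (E3.25), 0.92 and 0.33 (E3.75), and 1.94 and 2.82 (E4.0). Both E4.0 experiments were above both E3.75 experiments, while the second E3.25 experiment reached into the E4.0 range. This separation too has no share over all genes beside it. In culture its level by experiment ranged from 0.38 to 1.73 with DMSO and from 0.51 to 2.27 with LY at 16 hours, and from 0 to 0.91 and 0.11 to 1.09 at 24 hours. The order was E4.0 (2.38 ± 0.62), LY at 16 hours (1.35 ± 0.88), DMSO at 16 hours (1.24 ± 0.75), E3.25 (1.07 ± 1.28), E3.75 (0.63 ± 0.42), DMSO at 24 hours (0.52 ± 0.47) and LY at 24 hours (0.49 ± 0.52), with overlap between neighbours.

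Fgfr3 and Fgfr4 were rare. Fgfr3 was detected in 8 cells: 3 of 14 at E4.0, and after 24 hours of culture 1 of 28 (DMSO) and 4 of 24 (LY). It was detected in 0 of 19 cells at E3.25 and 0 of 22 at E3.75, where 3 cells of the total allow shares of up to 15.8% and 13.6% (exact 95% upper limits 17.6% and 15.4%), and in none of the 62 cells cultured for 16 hours. Fgfr3 was the only one of the 5 genes below the filter, which asked for detection in 25% of the cells of a group. Fgfr4 passed the filter through E4.0 alone, the group where it was highest, so its difference at E4.0 was tested on a gene that this group let in. Fgfr4 was detected in 15 cells, 1 at E3.25, 1 at E3.75, 4 of 14 at E4.0, and in culture 4 and 2 of 31 (DMSO, LY) after 16 hours, then 2 of 28 and 1 of 24. A single cell reached a TPM of 10 for Fgfr3 (11.4) and a single cell for Fgfr4 (11.2), both in the second LY experiment at 24 hours. The highest mean log2 level of each gene was at E4.0, 0.63 ± 0.07 for Fgfr3 and 0.79 ± 0.46 for Fgfr4. Experiments of neighbouring groups overlapped for both.

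Fresh stages address how the genes differ along development. None of the 4 tested genes passed limma's test between stages. From E3.25 to E3.75 no gene of the 11680 passed (0%; 536 at an unadjusted p under 0.05). Between E4.0 and E3.75 165 genes passed (1.41%; 157 higher and 8 lower at E4.0), and between E4.0 and E3.25 195 passed (1.67%; 164 higher and 31 lower), and 0 of 4 lies near these shares. Of the genes higher at E4.0, 107 of 157 and 111 of 164 passed the filter through E4.0 alone. In the second comparison the split was 129 higher and 71 lower after quantile normalization, and 125 and 79 with genes detected as a covariate, and in the first it was 117 higher and 23 lower with that covariate. Fitted on the groups compared alone, both comparisons gave 0 genes. Leaving out the first or the second E3.75 experiment gave 51 and 70 genes for the first comparison, and leaving out the first or the second E3.25 experiment 127 and 70 for the second. Without the first E4.0 experiment they gave 278 and 304. The medians over all genes were 0.29 and 0.20, with 7236 to 7682 genes detected per cell in the E4.0 experiments and 6000 to 6393 in those of the earlier stages.

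At E3.75 minus E3.25 the differences were -0.48 ± 0.86 for Fgf4, -0.66 ± 0.99 for Fgfr1, -0.44 ± 0.67 for Fgfr2 and -0.14 ± 0.29 for Fgfr4 (limma adjusted p = 1 each). Estimates for the receptors at E4.0 had unlike signs. At E4.0 minus E3.75, Fgfr2 was 1.75 ± 0.67 (95% interval 0.36 to 3.14, limma p = 0.0158, adjusted p = 0.329). Fgfr4 was 0.73 ± 0.29 (interval 0.12 to 1.34, limma p = 0.0212, adjusted p = 0.373), and Fgfr3, tested only without the filter, 0.60 ± 0.18 (limma adjusted p = 0.291). Fgfr1 was -1.48 ± 0.99 at E4.0 minus E3.75 and -2.14 ± 0.99 at E4.0 minus E3.25 (interval -4.19 to -0.09, limma p = 0.0415, adjusted p = 0.362). Fgf4 differed by 1.40 ± 0.86 and 0.91 ± 0.86 at E4.0 against E3.75 and E3.25 (limma adjusted p = 0.686 and 0.723). With TPM averaged over the cells of an experiment before the log, Fgf4 was lower at E4.0 than at E3.75 (-0.15), and without the second E3.25 experiment its difference from E3.25 was -0.040. Without the second E4.0 experiment the difference of Fgfr4 from E3.75 was 0.41, and without the first E4.0 experiment that of Fgfr1 from E3.25 was -1.33.

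**Figure D3:**
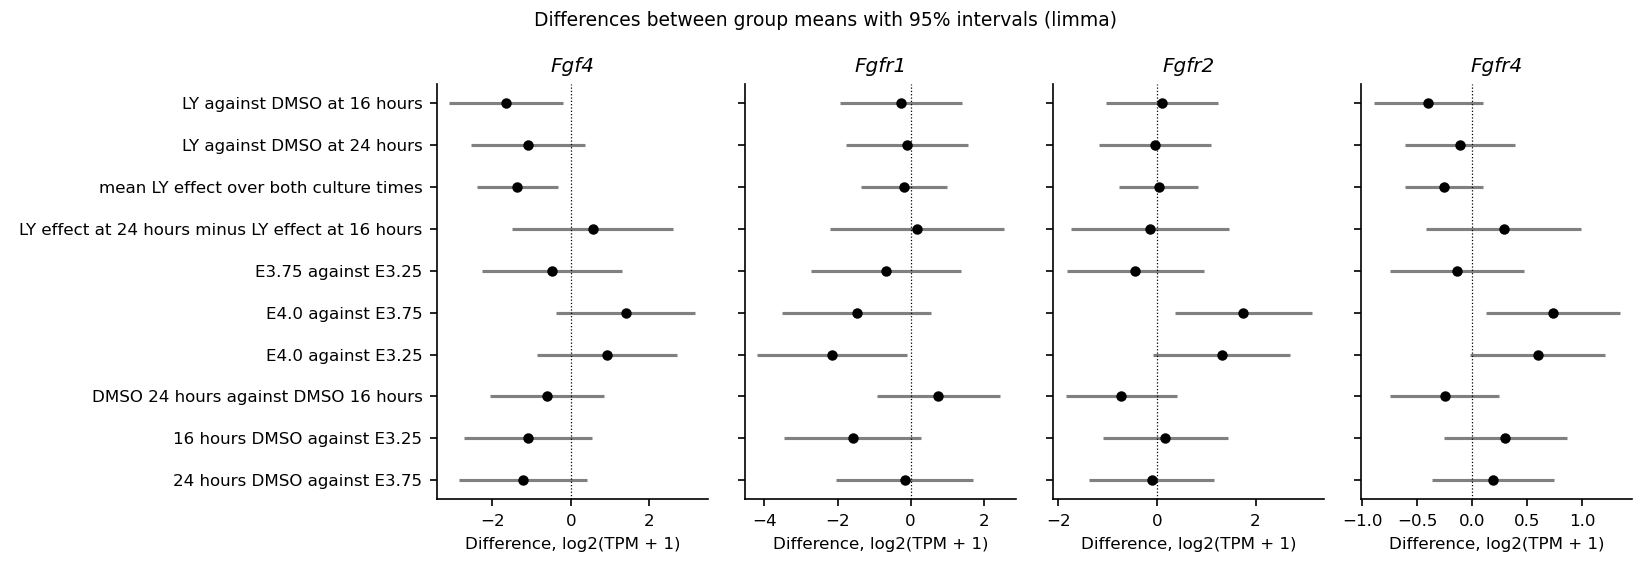
Differences of 4 genes in 10 comparisons, on the log2(TPM + 1) scale. Points are limma estimates and bars their 95% intervals; none passed the adjusted threshold, and the intervals of 5 of the 40 differences exclude 0.

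Cultured DMSO embryos were set against each other and against fresh ones of near age. At 24 against 16 hours of DMSO 1 gene of all passed (0.00856%), against E3.25 the 16-hour DMSO cells had 6 (0.0514%) and against E3.75 the 24-hour DMSO cells had none (0%; 370 at an unadjusted p under 0.05), by limma. None of these calls was a gene of the set. Between 24 and 16 hours of DMSO, Fgf4 differed by -0.61 ± 0.70, Fgfr1 by 0.76 ± 0.80, Fgfr2 by -0.72 ± 0.54 and Fgfr4 by -0.25 ± 0.24 (limma adjusted p from 0.689 to 0.835). Fgf4 differed by -1.10 ± 0.78 between DMSO at 16 hours and E3.25 and by -1.22 ± 0.78 between DMSO at 24 hours and E3.75 (limma adjusted p = 0.533 and 1). Fgfr1 differed by -1.58 ± 0.90 and -0.16 ± 0.90 in the same 2 comparisons (limma adjusted p = 0.430 and 1), Fgfr2 by 0.18 ± 0.61 and -0.10 ± 0.61, and Fgfr4 by 0.30 ± 0.27 and 0.19 ± 0.27. The experiment means of Fgf4 overlapped between DMSO and fresh cells in the first comparison and lay apart in the second (at most 2.68 against at least 2.76).

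Whether ligand and receptors exclude each other in a cell was read from the same cells. All 87 cells with Fgf4 also had Fgfr1, where the shares within each experiment would give 84.2, and 73 cells had Fgfr1 without Fgf4. Fgf4 and Fgfr2 were found together in 33 cells, Fgf4 without Fgfr2 in 54, Fgfr2 without Fgf4 in 17 and neither in 65. The same reckoning would give 27.5 cells with both if the genes were spread independently. At a TPM of 10 or more for each gene, 6 cells had both, against 5.77 from the shares. Of these, 4 were at E4.0, where 7 of 14 cells had both genes at a TPM of 1 or more.

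At the earlier stages no cell had both genes at a TPM of 10, among 10 cells (E3.25) and 9 cells (E3.75) with Fgf4 at that level, and the shares alone would give 0.60 and 0.40 such cells. The 6 cells of highest Fgf4 had Fgfr2 at 0, 0, 0.63, 0, 0.67 and 0. The 6 cells of highest Fgfr2 (49.3, 45.6, 41.9, 36.7, 35.7 and 34.6) had Fgf4 at 0, 0, 39.8, 0.25, 0 and 0.69, the third being an E4.0 cell. These cells were picked for their values and are a description. Across all 169 cells, after each experiment's mean was subtracted, log2 levels of Fgf4 correlated at r = 0.01 with Fgfr2, 0.08 with Fgfr1 and 0.06 with Fgfr4.

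**Figure D4:**
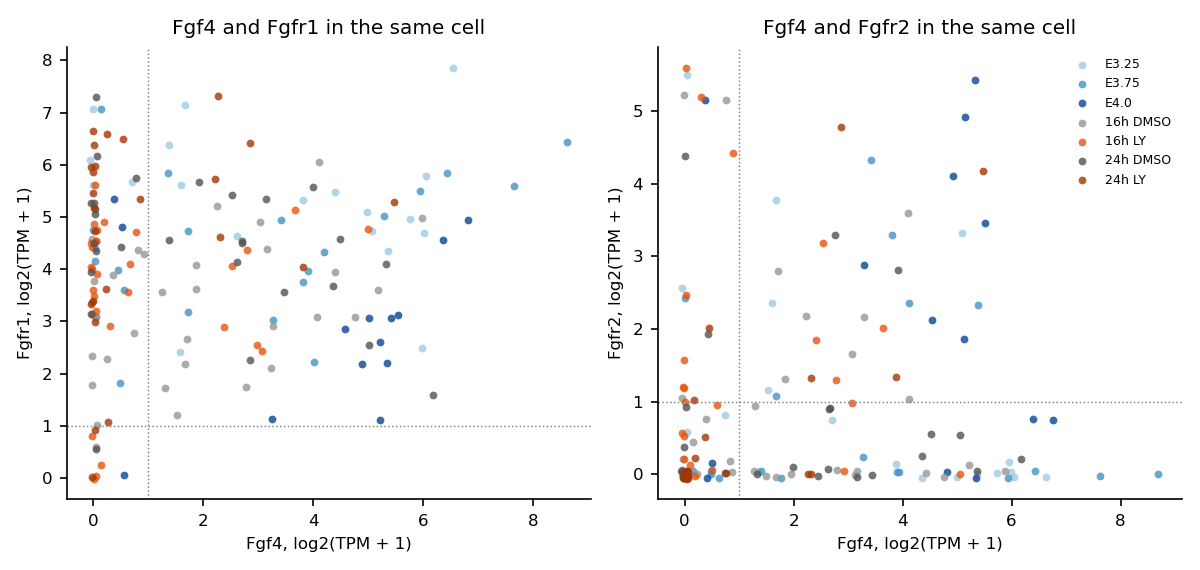
Fgf4 against Fgfr1 and against Fgfr2 in each of 169 cells, both as log2(TPM + 1), coloured by group, with a small jitter. Dotted lines mark a TPM of 1; no cell lies to the right of the vertical line and below the horizontal one for Fgfr1, and 54 do for Fgfr2.

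No receptor passed the test between cells with and without Fgf4. Over 9 dates with at least 2 cells on each side in an experiment, the log2 level in cells with Fgf4 minus that in cells without was 0.11 ± 0.24 for Fgfr1, 0.33 ± 0.37 for Fgfr2, 0.11 ± 0.10 for Fgfr3 and 0.09 ± 0.08 for Fgfr4 (SE over dates, two-sided exact sign-flip p of 0.680, 0.406, 0.359 and 0.328, adjusted p from 0.542 to 0.680). Fgfr2 was higher in cells with Fgf4 on 6 dates and lower on 3. By experiment the largest Fgfr2 differences were 2.38 in the first E4.0 experiment (7 cells with and 2 without Fgf4), 1.75 in the second LY experiment at 24 hours (6 and 6) and -1.62 in the third DMSO experiment at 16 hours (6 and 4). Cells of sequencing run 1 alone gave 0.75 ± 0.16 for Fgfr1, higher on 6 of 6 dates (exact p = 0.03125, adjusted p = 0.125), and cells of run 2 alone -0.60 ± 0.46. In LY cells alone, over 3 dates, Fgfr2 gave 1.12 ± 0.36 and Fgfr1 0.35 ± 0.04, both higher on 3 of 3 dates (exact p = 0.25 each, the smallest that 3 dates can give). On these 3 dates LY cells with Fgf4 also had 1254 ± 538 more genes detected than LY cells without. DMSO cells alone, over 4 dates, gave -0.46 ± 0.41 for Fgfr2 and -0.02 ± 0.55 for Fgfr1, each higher on 2 dates and lower on 2. Cells with Fgf4 had 810 ± 221 more genes detected than cells without, on 8 of 9 dates (exact p = 0.00781).

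Receptor genes were usually found 1 at a time. Fgfr1 was the only receptor gene detected in 103 cells and came with Fgfr2 alone in 39. No receptor was detected in 7 cells, 5 of them with LY, 1 with DMSO and 1 at E4.0. At E4.0 4 of 14 cells had 3 or 4 receptor genes, against 0 of 19 at E3.25 and 0 of 22 at E3.75. TPM divides by transcript length although these libraries start at the 3′ end of transcripts, so a comparison between genes is approximate. In the 48 cells with both, the TPM of Fgfr1 was above that of Fgfr2 in 37. At E4.0 Fgfr2 was the higher in 5 of 8 such cells, against 0 of 6 at E3.25 and 0 of 6 at E3.75, and in 4 of 8 with DMSO at 16 hours. The 2 genes had r = 0.02 across all cells after each experiment's mean was subtracted, which leaves out differences between groups.

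**Figure D5:**
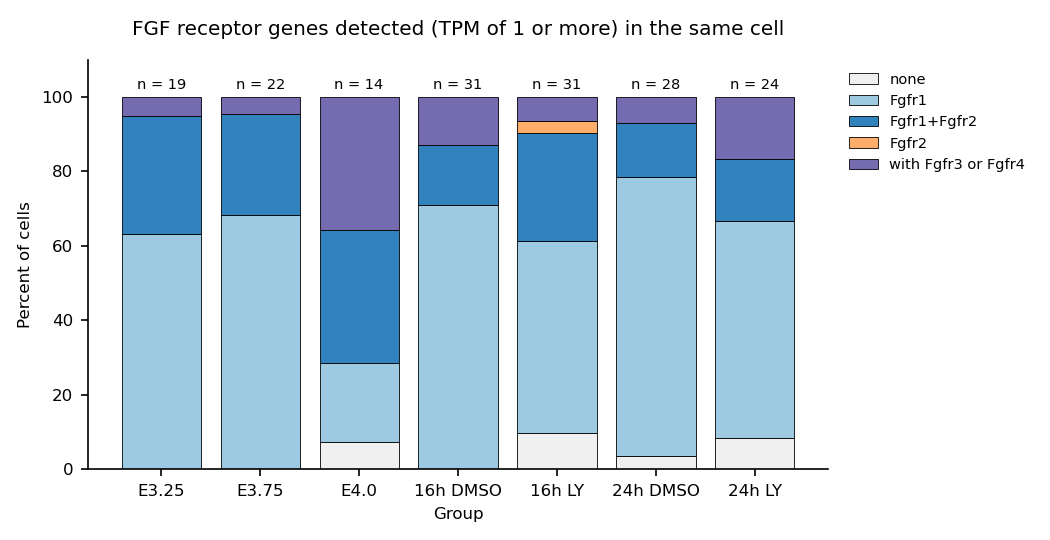
Share of cells in percent by the receptor genes detected together (TPM of 1 or more), for each group, with the number of cells above each bar. Fgfr1 alone is the largest class in every group except E4.0, where 5 of 14 cells had Fgfr1 with Fgfr2 and 5 had Fgfr3 or Fgfr4.

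Lineage lists were used to place the cells. The score of a list is the mean log2(TPM + 1) of its genes in a cell, and neither list holds an FGF gene. Fgf4 correlated with the score of 18 epiblast genes at r = 0.67 across 19 cells at E3.25, 0.50 across 22 at E3.75 and 0.12 across 14 at E4.0. In culture the value was 0.44 (DMSO) and 0.36 (LY) after 16 hours, then 0.55 (DMSO) and 0.46 (LY) after 24 hours. With the primitive endoderm score the correlation of Fgf4 was 0.25 (E3.25), -0.13 (E3.75) and 0.21 (E4.0), and in culture 0.34 (DMSO) and 0.31 (LY) after 16 hours, then 0.52 (DMSO) and 0.11 (LY). With the endoderm score minus the epiblast score it was -0.47, -0.59 and 0.13 at the fresh stages in order, 0.19 and -0.13 after 16 hours (DMSO, LY), and 0.07 and -0.43 after 24 hours. After each experiment's mean was subtracted, Fgf4 correlated with the number of genes detected at r = 0.30 over all cells. Cells of an experiment share its processing. Fgfr2 correlated with the primitive endoderm score minus the epiblast score at r = 0.69 across the 14 cells at E4.0. The value was 0.07 at E3.25 and 0.02 at E3.75. In culture it was 0.38 (DMSO) and -0.21 (LY) after 16 hours, then -0.30 (DMSO) and 0.05 (LY) after 24 hours. Each of these group values, for Fgf4 as for Fgfr2, takes the cells of 2 or 3 experiments together. Experiments of a group could differ, as for Fgf4 at E3.25 (mean log2 level 4.35 and 2.44). The part of such differences in the correlations was not tested.

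At E4.0 3 of 14 cells had a primitive endoderm score above their epiblast score, a range and not a cell type, with 1 cell within 0.2 of the limit. All 3 came from the first E4.0 experiment, so they are cells of 1 replicate and their values are a description. All 3 had Fgfr2, at a median TPM of 10.1, against 0.065 in the other 6 cells of that experiment and 3.26 in the 5 cells of the second. Fgfr2 reached a TPM of 10 in 2 of the 3 and in 3 of the other 11 E4.0 cells. The highest Fgfr2 value at E4.0 (41.9) was in 1 of those 11. The median Fgfr1 of the 3 cells was 1.18, against 6.07 in the 6 cells and 22.9 in the 5. All 3 also had Fgf4, at a median TPM of 34.4, against 29.1 in the 6 and 39.8 in the 5. Nearly all E4.0 cells with Fgf4 had primitive endoderm factors too, with Gata4 in 10 of 11 and Sox17 in 10 of 11, and Nanog in 11 of 11.

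The genes most alike Fgf4 across the 169 cells, after each experiment's mean was subtracted, were Foxd3 (r = 0.44), a forkhead factor of pluripotent cells, the secreted protein gene Spp1 (0.44), Ebpl (0.40), Rnf125 (0.37) and Tspyl1 (0.35). The lowest were Tmem59 (-0.32), Pmm1 (-0.31) and Gulo (-0.29). For Fgfr1 the highest were Nudc (0.43), Tmem259, Larp1, Cdipt and Mlf2 (0.40) and the lowest Rps12l1 (-0.34), Srp14 and Gm44510. For Fgfr2 they were Cpne7 (0.40), Snora70, Bbip1, Abcc1 and Bmper (0.34), the last a secreted modulator of BMP signals, and at the low end Bnip3l (-0.34), Gm11539 and Oxnad1. For Fgfr4 they were Man2b2 (0.37), Mafk, Gm15725, Shtn1 and Zdhhc8 (0.35), and Ptpmt1 (-0.30), Rad54l and Mcm7. Each is 1 of 11680 genes ranked, so the highest of them are extreme by selection.

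Of 21 other FGF ligand genes, Fgf3 (detected in 33 cells) and Fgf10 (43 cells) passed the filter and none passed the test in any comparison. Fgf11 was detected in 11 cells, Fgf13 in 4, Fgf1 in 3 and Fgf5, Fgf8 and Fgf15 in 1 each, and the other 13 in none. Fgf10, which signals mainly through FGFR2, was detected in 9 of 19, 13 of 22 and 9 of 14 fresh cells, in 1 of 31 with each of DMSO and LY at 16 hours, and in 9 of 28 with DMSO against 1 of 24 with LY at 24 hours. Its level with LY minus DMSO at 24 hours was -0.62 ± 0.64 (limma adjusted p = 0.942).

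Among 26 genes of co-receptors and heparan sulfate, the sugar chains that hold FGF on its receptor, 16 were tested and 2 rose at E4.0 in each comparison, where 1.41% and 1.67% of all genes were called. Both passed the filter through E4.0 alone, the group where they were high, and both also passed the test with no filter (limma adjusted p from 0.000236 to 0.0191). Flrt3, a membrane protein that binds FGF receptors, rose by 2.28 against E3.75 and 2.14 against E3.25 (limma adjusted p = 3.18e-05 and 5.37e-05) and was detected in 11 of 14 cells at E4.0 and in 3 of 41 before. The glypican Gpc4 rose by 1.24 and 1.18 (limma adjusted p = 0.00957 and 0.0116). The list's median was 0.16 and 0.03 beside 0.29 and 0.20 over all genes. Of 16 tested feedback genes and targets of FGF-ERK, Spred1, an inhibitor of RAS-ERK signalling, rose against E3.75 by 1.63 (limma adjusted p = 0.0438), and the factor Etv1 against E3.25 by 1.73 (limma adjusted p = 0.0483; detected in 4 of 14 cells). Etv1 had passed the filter through E4.0 alone, and with no filter neither gene was called (limma adjusted p = 0.157 for Spred1 and 0.218 for Etv1). Their list had medians of 0.24 and 0.53. Flrt3 passed in 29 of 31 other settings in each comparison, failing with only the groups compared and in cells of run 1 alone. Gpc4 passed in 24. It failed in the same settings as Flrt3, in cells of run 2 alone and after quantile normalization. It also failed without the first E4.0 experiment or either experiment of the earlier stage. Spred1 passed in 8 and Etv1 in 6, neither of them without the second E4.0 experiment (1.12 for Spred1, 0.44 for Etv1), without either E3.25 experiment, or without either E3.75 experiment.

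None of the 12 tested receptor adaptors and none of the 16 tested genes of the RAS to ERK chain passed at E4.0, with medians of 0.41 and 0.35 against E3.75 and 0.29 and -0.13 against E3.25. The adaptor gene Cbl differed by 1.47 ± 0.61 (SE) and Shc1 by 1.2 ± 0.96 from E3.75, and the RAS gene Nras by 1.75 ± 1.17. Against E3.25 the 2 largest adaptor differences were in Crk (1.28 ± 0.90) and Shc1 (0.84 ± 0.96). The 2 largest of the RAS to ERK chain were below 0 there, in Hras (-2.07 ± 0.97) and Araf (-1.47 ± 1.00). Of the chain's 16 genes, 10 were above 0 against E3.75 and 7 against E3.25. Of 21 tested primitive endoderm genes 8 rose against E3.75 and 9 against E3.25 and none fell, among them Srgn (4.97 and 5.21), Amn (4.06 and 5.11) and Serpinh1 (3.38 and 4.25), with list medians of 1.90 and 2.39, beside 1.41% and 1.67% called over all genes. Of 18 epiblast genes 3 rose in each, Ifitm1 (2.48 and 1.95), Enox1 (1.77 and 2.28) and Morc1 (1.57 and 1.66), with medians of 0.93 and 1.04. Of these calls, 5 of 8 and 5 of 9 primitive endoderm genes, and 2 of 3 epiblast genes in each comparison, had passed the filter through E4.0 alone, among them Srgn, Amn, Ifitm1 and Enox1. Each of the 6 genes with values here lost its call with only the groups compared, and Amn, Serpinh1, Enox1 and Morc1 lost it against E3.75 without the first E3.75 experiment. Serpinh1 and Enox1 also lost it against E3.75 without the second E4.0 experiment, and Ifitm1 against E3.25 without the second E3.25 or the first E4.0 experiment. No outer-layer gene of 14 passed (medians 0.12 and -0.04). In the other 8 comparisons no gene of the 8 lists passed.

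With LY no pathway gene passed. For the mean of both culture times the list medians were -0.19 for co-receptors, -0.33 for adaptors, -0.38 for the RAS to ERK chain, -0.06 for feedback genes and targets, -0.22 for epiblast, -0.42 for primitive endoderm and -0.38 for outer-layer genes, beside -0.27 over all genes. The 2 largest differences among feedback genes and targets were in Etv5, an ETS factor induced by FGF, at -1.36 ± 0.53, and the phosphatase gene Dusp1, at 1.2 ± 0.48 (limma adjusted p = 0.534 each). Etv5 was detected in 29 of 31 DMSO and 19 of 31 LY cells at 16 hours, with levels of 3.91 ± 0.76 and 1.77 ± 0.72, and in 22 of 28 and 17 of 24 at 24 hours. Among adaptors the largest were Ptpn11 (-0.87) and Grb2 (-0.75), in the RAS to ERK chain Nras (-1.10) and Rras2 (-1.03), and among co-receptors and heparan sulfate genes Ext2 (-1.20) and Sdc4 (0.45).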

How the data were processed

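The authors deposited 1 table of TPM values with 170 columns, each matched by its title to 1 of 186 labelled samples; the other 16 samples were not analysed here. The series' design text states 184 cells. Per the submitters' processing notes, bcl2fastq 2.20.0, cutadapt 2.9, STAR 2.7.9a, RSEM 1.3.3 and build mm10 were used; settings and annotation are not given in the sources used here. Per the labels' protocols, cDNA synthesis began at transcripts' 3′ ends, and Nextera XT libraries were made after amplification. The 92 spike-in lines were left out, and 1 pair of E3.25 columns that correlated more with each other (r = 0.824) than with other cells (at most 0.783) was averaged as 1 cell. A second pair of like-named columns (LY at 24 hours, first experiment) correlated less with each other (r = 0.594) than with another cell (0.724) and was kept as 2 cells, so that experiment's 7 cells could hold 1 cell counted again. All cells were kept, and doublets were not called because each sample is 1 picked cell.

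Experiments were compared with limma 3.58.1 in R 4.3.3 (18 means of log2(TPM + 1), all 7 groups in 1 fit, eBayes with trend), over 11680 genes detected in at least 25% of the cells of a group, at a threshold of 0.05 on p-values adjusted by Benjamini-Hochberg within each comparison. The model was tested on simulated data, drawn independently from normal distributions with each gene's mean and residual spread. Differences of 2 and 4 were called in 40% and 84% of 50 genes each for LY against DMSO at 16 hours. For E4.0 against E3.75 they were called in 16% and 78%. The draws had no floor at 0 and no date effect, so these shares may not hold for genes near 0. Shares were compared over dates with exact sign-flip tests, and levels in cells with and without Fgf4 likewise. The samples of a group are separate collections by date, each of several litters per the design text. LY and DMSO arms share date labels, which pairs them. Across genes, the 2 arms of a date deviated from their groups with correlations of 0.393, 0.121 and 0.317 (16 hours) and 0.231, 0.120 and 0.0732 (24 hours).

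The 5 genes and the 8 gene lists (155 symbols, 115 tested) were chosen with earlier results of these data known. The 5 genes are named whatever their values (Fgfr3 where it was tested); for genes alike, the 5 highest and 3 lowest correlations; and for lists, up to 5 genes past the threshold, or the 2 of largest size (1 such gene is not reported here). Alternatives changed the pseudocount, filter, averaging, scaling, covariate, weights, groups fitted, date block, sequencing run and detection level, and left out each experiment or date.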

Additional observations from a re-analysis of the deposited data

How the results depend on the processing

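None of the 5 genes passed limma's test in any comparison under the main or the 31 other settings (lowest adjusted p = 0.329 and 0.120). Of 40 differences, 21 lay within 1 SE of 0, and 19 of those changed sign in some setting; of the 19 beyond 1 SE, 3 did. These were Fgf4 at E4.0 against E3.75 with the log2 of the mean TPM (-0.15), Fgf4 at E4.0 against E3.25 in cells of run 1 (-0.37) and when the second E3.25 experiment was left out (-0.040; range with an experiment left out -0.040 to 1.87), and Fgfr4 in DMSO at 16 hours against E3.25 in cells of run 1 (-0.055). The mean LY difference of Fgf4 ranged from -1.69 to -1.12 with an experiment left out, and was -2.57 and -0.44 with pseudocounts of 0.1 and 10 and -1 after quantile normalization. With the replicate block for the date it was -1.36 (p = 0.0052, limma adjusted p = 0.263); the paired fit changed no call of a member. The detected share of Fgfr4 turned to 1.39 points at a TPM of 10, and that of Fgfr3 to -2.91 points with detection above a TPM of 0. That of Fgfr2 turned to 4.07 points at a TPM of 10 and to 5.92 in run 2. It was 5.43 points without the first 16-hour date and 4.78 in cells of the shared range of genes detected. Levels in cells with minus without Fgf4 turned for Fgfr3 with detection above a TPM of 0 (-0.23), in run 1 (-0.021) and in LY cells (-0.27), and for Fgfr4 in run 1 (-0.11) and fresh cells (-0.017). They also turned for Fgfr1 with detection above a TPM of 0 (-0.24), in run 2 (-0.60) and in DMSO cells (-0.020). For Fgfr2 they turned at a TPM of 10 (-0.029) and in DMSO cells (-0.46). Fgf3 at E4.0 turned in cells of run 2 (-0.43 against E3.75, -0.48 against E3.25), and Fgf10 without the second E4.0 experiment (-0.89 and -0.30; ranges with an experiment left out -0.89 to 2.64 and -0.30 to 3.23). The cause of these turns was not tested.

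The counts of all genes called moved more. LY at 16 hours gave 1 with a pseudocount of 10, no filter, the mean TPM, weights by cells and run 1, and 0 to 2 with an experiment left out (2 without the second 16-hour DMSO experiment); the mean LY effect gave 0 to 1 (1 without the second 24-hour LY experiment). E3.75 against E3.25 gave 90 without the filter and 1 by mean TPM (0 to 9 with an experiment left out: 9 without the first E3.25 and 4 without the first E3.75 experiment). E4.0 against E3.75 gave 70 by mean TPM, 105 after quantile normalization, 0 with only the groups compared and 13 in run 1; it gave 51 and 70 without the first and second E3.75 experiments and 278 without the first E4.0 experiment. E4.0 against E3.25 gave 361 without the filter, 129 by mean TPM, 0 with only the groups compared, 12 in run 1 and 384 in run 2; it gave 127 and 70 without the first and second E3.25 experiments and 304 without the first E4.0 experiment. DMSO at 24 against 16 hours gave 2 with a pseudocount of 0.1, 3 without the filter, 11 with weights, 16 with the replicate block, and 0 after quantile normalization, with the covariate, with only the groups compared and in each run (0 to 8 with an experiment left out: 8 without the second 16-hour, 0 without the first or second 24-hour DMSO experiment). DMSO at 16 hours against E3.25 gave 13 with a pseudocount of 10, 81 without the filter, 10 after quantile normalization, 1 with the covariate, 30 with weights, 49 with only the groups compared, 0 in run 1, 24 in run 2 and 1 in experiments of over 3 cells, an alternative chosen after seeing the data (0 to 52 with an experiment left out: 52 if the first E3.25 experiment is omitted, 0 if the second is). DMSO at 24 hours against E3.75 gave 17 without the filter and 1 by mean TPM and in run 2 (0 to 5 with an experiment left out: 5 without the first E3.75 experiment). TPM keeps no depth, so a gene below a TPM of 1 in a cell may be present.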
